A study of Mus musculus with 4 samples.

Results

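The genes described here are 40 mouse genes whose products make ribosomes in the nucleolus. They were chosen by name as factors of RNA polymerase I transcription, of small nucleolar ribonucleoproteins (snoRNPs) and of pre-rRNA processing. All 40 were among the 50559 genes of the count table and all 40 had enough counts to be tested, among 18144 genes that did. Transcript counts came from E14 mouse embryonic stem cells (ESCs) that received either an siRNA directed at Cnot1 (the siCnot1 group) or a control siRNA without a target (the siNT group), and each group has 2 biological replicates. Each siRNA was given at 150 nM by lipofection and the cells were collected after 48 h. According to the study's methods the ESCs carry a tdTomato transgene under the promoter of the retrotransposon MERVL, so both groups share it, and all libraries come from a single cell line kept on gelatin with LIF. Which of the siRNAs against Cnot1 served for these libraries is not given in the sources used here. CNOT1 is the scaffold of CCR4-NOT, a complex that shortens the poly(A) tails of mRNAs, and the comparison asks which transcripts change when it is depleted. The libraries were made from poly(A)+ RNA, so rRNA itself was not measured.

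The nucleolus forms around the ribosomal DNA (rDNA) repeats. There RNA polymerase I makes a long precursor that is methylated by box C/D snoRNPs, pseudouridylated by box H/ACA snoRNPs, cut, folded and joined to ribosomal proteins to give the small and the large subunit. Fast-growing cells such as ESCs hold large nucleoli and high amounts of these factors. The nucleolus is also tied to the 2-cell-like (2C-like) state that a small share of ESCs enters, in which genes of the 2-cell embryo such as Dux and Zscan4 are on. Nucleolin, with TRIM28 and LINE1 RNA, holds the Dux locus silent near the nucleolus, and disturbed rRNA synthesis is known to raise 2C genes.

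Counts on genes totalled 32135824 to 32557440 per library, so the groups did not differ much in depth. Cnot1 itself fell from 913 and 986 normalized CPM in the siNT libraries to 185 and 192 in the siCnot1 libraries, 19.8% of the control level (log2 fold change -2.33, standard error 0.0587, edgeR adjusted p = 2.37e-18). CPM here are counts relative to library size, corrected with edgeR's TMM factors (0.963 to 0.964 for the siNT libraries, 1.03 to 1.04 for the siCnot1 libraries). Scaling by library totals in place of TMM moved the median log2 fold change of all tested genes from 0.0084 to 0.12, and the calls over all genes from 2668 lower and 2719 higher to 1563 lower and 3999 higher. Of 8 ESC markers all were expressed, and 6 were lower in siCnot1 (list median -0.18 on the log2 scale). Their summed level was 6569 to 6790 CPM in siNT and 5532 to 5873 in siCnot1. With library totals 2 of the 8 were lower and the list median was -0.07. Many abundant genes were called lower, 53.9% of all tested genes at 8 to 9 log2 CPM and 80.9% at 10 to 11. With a trend of fold change with exon length and level removed, the median of the ESC markers was 0.01. Fibroblast markers summed to at most 13.3 CPM in any library, extraembryonic endoderm markers to at most 14.6 and trophectoderm markers to at most 82.4. Of 6 markers in each of these lists, 1 fibroblast marker (Col1a1) and 1 endoderm marker (Pdgfra) were higher, 1 trophectoderm marker (Tfap2c) was lower, and Col3a1 and Dcn were at 0 in every library. Of 6 2C genes, 4 were higher (Usp17la and Zscan4a, Zscan4c and Zscan4d, which share reads), and the list's summed level went from 62.5 to 63.7 CPM in siNT to 159 to 165 in siCnot1. The part of these marker changes in the results below was not tested.

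Ribosome biogenesis transcripts were modestly and broadly lower after Cnot1 knockdown. Of the 40 genes, 27 fell, 0 rose and 13 did not pass at an adjusted p of 0.05 (edgeR quasi-likelihood test, Benjamini-Hochberg adjustment over the 18144 genes tested). Over all tested genes 14.7% were called lower and 15.0% higher, against 67.5% lower among the 40. The median log2 fold change of the 40 was -0.23, with a range from -0.43 (Fbl) to 0.07 (Nop10), so the genes called stood 12.2% to 25.8% below the control. At the threshold the study used, a 2-fold change with an unadjusted p of at most 0.05, 0 of the 40 were lower and 0 higher, beside 1.80% of all tested genes lower. At an unadjusted p under 0.05, 31 were lower and 0 higher. In bulk RNA, fewer cells with a high level and less RNA per cell cannot be told apart. Leaving out a library lowered the count to 7 without siNT replicate 1, 16 without siNT replicate 2, 18 without siCnot1 replicate 1 and 15 without siCnot1 replicate 2, while the median stayed between -0.23 and -0.26. With library totals in place of TMM the count was 16.

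These genes are among the most abundant in ESCs, and level went together with fold change in these libraries. Their median level lay at the 95.4th percentile of tested genes. Among the 3629 tested genes at or above the level of the lowest of the 40, 38.0% were called lower and 13.1% higher, and the median log2 fold change was -0.10. At a level of 6 to 7 on the log2 CPM scale, the 10 ribosome biogenesis genes had a median of -0.19 and all 1927 tested genes of that level had a median of -0.06, with 28.0% of them called lower. At 7 to 8 the 13 ribosome biogenesis genes had a median of -0.23, beside -0.10 over 1144 genes, of which 39.1% were lower. At 8 to 9 the difference was smaller, with a median of -0.23 for 13 ribosome biogenesis genes and -0.17 for all 456, of which 53.9% were lower. At 9 to 10 the 2 ribosome biogenesis genes had a median of -0.35, beside -0.24 over 200 genes. At 10 to 11 there were 0 ribosome biogenesis genes, and 80.9% of the 47 tested genes were lower. The median of the 40 lay 0.24 below that of all tested genes and 0.13 below that of the tested genes of the same level range on the log2 scale, differences that a change of library scaling leaves as they are. After a trend of fold change with exon length and level was removed, the median of the 40 was -0.10.

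**Figure D1:**
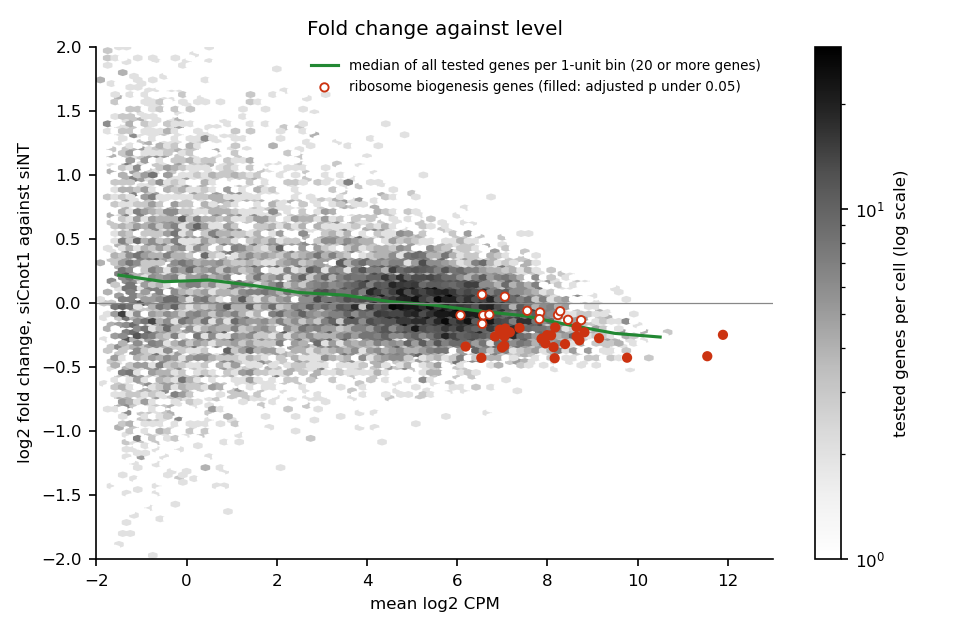
Log2 fold change of siCnot1 against siNT (vertical axis) against mean log2 CPM (horizontal axis) for all tested genes in grey shades and the 40 ribosome biogenesis genes as red circles, filled where the edgeR adjusted p was under 0.05; genes beyond the vertical axis are not drawn. The green line, the median of all tested genes per bin of level, runs from 0.22 at the lowest level to -0.27 at 10 to 11 log2 CPM, and 30 of the 38 ribosome biogenesis genes in its range lie below the median of their bin.

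The libraries separated for nearly all of these genes. For 37 of the 40, both siCnot1 values were under both siNT values, for 0 both were over, and for 3 (Nop10, Rrs1 and Polr1b) they overlapped. This was so for 31.2% of all tested genes in the lower direction and 32.7% in the higher, and for 55.5% in the lower direction among tested genes at or above the lowest of the 40. The 40 genes took 1.716% and 1.675% of all counts in siNT and 1.498% and 1.527% in siCnot1. The sum of their normalized CPM was 17825 and 17399 for the siNT libraries, against 14371 and 14808 for the siCnot1 libraries, 82.8% of the control. Without Ncl and Npm1, which alone took 0.719% to 0.734% of all counts in siNT, the sum of the other 38 was 85.0% of the control. Replicates of a group differed by a median of 0.069 (siNT) and 0.073 (siCnot1) on the log2 scale, and most for Fbl, at 0.17 and 0.18.

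**Figure D2:**
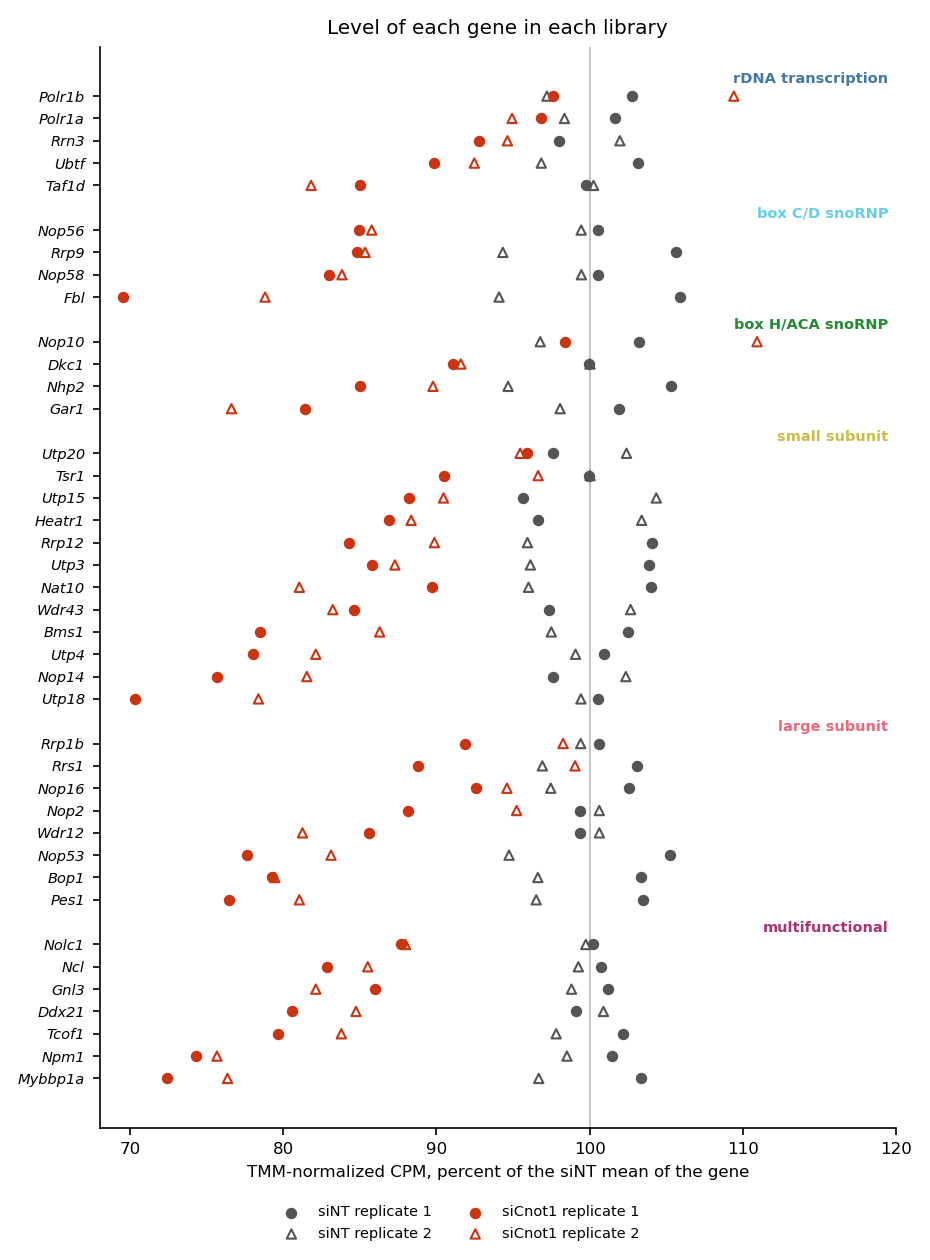
TMM-normalized CPM of each of the 40 genes in each of the 4 libraries, as a percent of the gene's siNT mean, with 1 row per gene and the genes grouped by role. The siCnot1 points (red) lie left of both siNT points (grey) in every row but those of Polr1b, Nop10 and Rrs1, and Fbl, Utp18 and Mybbp1a lie farthest left.

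The classes differ widely in how much of this RNA they supply. In siNT transcripts of the 7 multifunctional proteins summed to 10200 to 10450 normalized CPM and in siCnot1 to 8161 to 8392, the greater part of the total in every library. The 12 small-subunit factors summed to 2421 to 2434 CPM in siNT and 2047 to 2103 in siCnot1, and the 8 large-subunit factors to 1495 to 1564 and 1278 to 1346. The 4 box C/D proteins summed to 1367 to 1433 and 1130 to 1169, and the 5 rDNA transcription factors to 1194 to 1223 and 1112 to 1137. The 4 box H/ACA proteins were lowest, at 704 to 732 in siNT and 642 to 660 in siCnot1. In all 6 classes both siCnot1 sums lay under both siNT sums. Per kilobase of exon, the siNT level ran from 971 CPM for Npm1 down to 23.8 for Polr1b and 18.45 for Rrp12, with Wdr12 as the lowest of the 40.

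Transcripts of the multifunctional nucleolar proteins fell as a whole, 7 of 7, and their median was -0.27 on the log2 scale. With library totals 5 of 7 were lower and the median was -0.17, and with the trend of level and exon length removed it was -0.10. A fall was common among abundant genes. Of all tested genes, 53.9% were called lower at 8 to 9 log2 CPM and 80.9% at 10 to 11. Npm1 encodes nucleophosmin, the pentameric chaperone of the granular outer zone of the nucleolus. It had 3467 and 3365 normalized CPM in siNT and 2538 and 2585 in siCnot1. The groups were far apart beside the gap between replicates, and the log2 fold change was -0.42 (standard error 0.0503, edgeR adjusted p = 1.32e-06), the smallest adjusted p of the 40. Mybbp1a, a MYB-binding protein that takes part in pre-rRNA processing and rDNA repression, had 1032 and 966 CPM in siNT and 723 and 763 in siCnot1. Its values did not overlap between groups and its log2 fold change was -0.43 (standard error 0.0549, edgeR adjusted p = 2.87e-06). Ncl encodes nucleolin, the RNA-binding protein noted above for its role at Dux. It had 4159 and 4098 CPM in siNT and 3421 and 3531 in siCnot1. With these levels 4 tested genes stood above Ncl and 6 above Npm1 by mean CPM. Ncl was lower in both siCnot1 libraries by a margin well over the replicate gap, giving a log2 fold change of -0.25 (standard error 0.050, edgeR adjusted p = 0.000536) and 84.2% of the control level. Ncl and Npm1 lie above 11 log2 CPM, beyond the bins of level. In the nearest bin, 10 to 11, the median of all tested genes was -0.27.

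The other genes of that class fell as well. Tcof1, the treacle scaffold of RNA polymerase I mutated in Treacher Collins syndrome, fell by 0.29 on the log2 scale. Ddx21, an RNA helicase of rDNA transcription and snoRNA release, went from 615 and 626 normalized CPM to 500 and 526. It fell by 0.27 on the log2 scale (edgeR adjusted p = 0.000412), and Gnl3 (nucleostemin, a GTPase of stem cells) by 0.25. Nolc1, a chaperone that carries snoRNPs, fell by 0.19, the smallest change of the class. In siNT, CPM per kilobase of exon placed Npm1 at 971, Ncl at 471 and Mybbp1a at 228, and Tcof1 at 98.8 as the lowest of these 7. Genes in GENCODE M21 on GRCm38 place Npm1 at chr11:33152287-33163206 and Ncl at chr1:86344719-86359400, both on the minus strand.

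Transcripts of the box C/D snoRNP proteins also fell as a whole, 4 of 4 with a median of -0.25. Beside this, 14.7% of all tested genes were called lower, and 53.9% of those at 8 to 9 log2 CPM. With library totals 2 of the 4 were lower and the class median was -0.14, and it was -0.084 with the trend removed. Fbl encodes fibrillarin, the methyltransferase of these particles, and lies at chr7:28169710-28179269 on the plus strand of GRCm38. It had 348 and 309 normalized CPM in siNT and 229 and 259 in siCnot1. Its replicates were the farthest apart of the 40 in both groups, yet the groups did not overlap, and the log2 fold change was -0.43 (standard error 0.0660, edgeR adjusted p = 2.60e-05). A pseudogene row, Fbl-ps2, held 273 to 400 counts per library, and how reads shared with pseudogenes were counted is not given in the sources used here. Nop58, a core protein that bridges the particle, had 440 and 435 CPM in siNT and 363 and 367 in siCnot1. Its replicates nearly coincided, and the log2 fold change was -0.26 (standard error 0.0535, edgeR adjusted p = 0.000621). Its partner Nop56 fell by 0.23, as did Rrp9, the protein of the U3 snoRNP that guides the early cuts in the precursor.

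The box H/ACA proteins were divided, with 2 of 4 lower and a median of -0.16. Gar1 had 82.9 and 79.8 normalized CPM in siNT and 66.2 and 62.3 in siCnot1. The groups did not overlap and the log2 fold change was -0.34 (standard error 0.0711, edgeR adjusted p = 0.000786). Nhp2, a kink-turn RNA-binding protein, had 187 and 168 CPM in siNT and 151 and 160 in siCnot1. The siNT replicates lay farther apart than the nearest values of the groups, and its log2 fold change was -0.19 (standard error 0.0631, edgeR adjusted p = 0.0220). Dkc1, the pseudouridine synthase dyskerin that also stabilizes telomerase RNA, did not pass (-0.13, edgeR adjusted p = 0.0709). Nop10, the smallest protein of the particle, had 94.4 and 88.5 CPM in siNT and 90.04 and 101 in siCnot1, with a log2 fold change of 0.07 and a 95% interval from -0.08 to 0.21. All 4 belong to the same particle, but the difference between them was not tested. With library totals 1 of 4 was lower and the median of the class was -0.056. After the trend with exon length and level was removed, the median of the class was 0.03. Nhp2 did not pass with library totals (edgeR adjusted p = 0.31) or without the filter on low counts (edgeR adjusted p = 0.14).

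Of the small-subunit processing factors, 9 of 12 fell, with a median of -0.22. With library totals 5 of 12 were lower and the median was -0.11, and it was -0.12 with the trend removed. Utp18, a protein of the UTP-B module of the small-subunit processome, had 107 and 106 normalized CPM in siNT and 74.7 and 83.3 in siCnot1. This was the largest fall of the class, and the log2 fold change came to -0.43 (standard error 0.0683, edgeR adjusted p = 4.31e-05). Utp4, a protein of the UTP-A module, had 376 and 369 CPM in siNT and 291 and 306 in siCnot1. The groups were well apart and the log2 fold change was -0.32 (standard error 0.0553, edgeR adjusted p = 0.000106). Nop14, a processome protein, went from 139 and 146 CPM to 108 and 116, with both siCnot1 values well under both siNT values. It fell by 0.35 (edgeR adjusted p = 0.000189), the GTPase Bms1 by 0.28 and Wdr43 by 0.25. The RNA cytidine acetyltransferase Nat10 fell by 0.23, the processome protein Utp3 by 0.21, the export factor Rrp12 by 0.20 and Heatr1, the counterpart of yeast UTP10, by 0.19. Utp15 (-0.16), the pre-40S factor Tsr1 (-0.10) and the very large protein Utp20 (-0.06) did not pass, with adjusted p-values of 0.0699 to 0.425 in the edgeR test. Tsr1 shares 46.3% of its exon bases with Srr on the opposite strand, a gene with 105 to 168 counts per library, and whether counting used strand is not given in the sources used here.

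Of the large-subunit factors, 4 of 8 fell. Of all tested genes, 28.0% were called lower at 6 to 7 log2 CPM, 39.1% at 7 to 8 and 53.9% at 8 to 9. Whether the class differed from genes of like level was not tested. The 4 that fell included the PeBoW complex in full. PES1, BOP1 and WDR12 form this complex, which is needed to make the 28S and 5.8S rRNA. Pes1 had 326 and 304 normalized CPM in siNT and 241 and 255 in siCnot1. The groups did not overlap and the log2 fold change was -0.34 (standard error 0.0581, edgeR adjusted p = 8.24e-05). Bop1 had 152 and 142 CPM in siNT and 117 in both siCnot1 libraries, giving a log2 fold change of -0.33 (standard error 0.0616, edgeR adjusted p = 0.000225). Wdr12 fell by 0.26. Nop53, a late factor that brings the RNA exosome to the pre-60S particle, went from 290 and 261 CPM to 214 and 229. It fell by 0.32 (edgeR adjusted p = 0.000394), with no overlap of the groups. The methyltransferase Nop2 (-0.13), Nop16 (-0.10), Rrs1 of the 5S particle (-0.09) and Rrp1b (-0.07) did not pass, with edgeR adjusted p-values of 0.111 to 0.374. Of these, Rrs1 had overlapping libraries, and the 95% intervals of the 4 reached down to -0.25 at most. The class had a median of -0.19, which was -0.086 with library totals, where 3 of 8 were lower and Wdr12 did not pass (edgeR adjusted p = 0.0560), and -0.051 with the trend removed.

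The rDNA transcription factors differed least from the control. Only Taf1d was called, 1 of 5, beside 14.7% of all tested genes called lower. The class median was -0.09 with TMM scaling but 0.01 with library totals. Taf1d, a subunit of the promoter selectivity factor SL1, had 124 and 125 normalized CPM in siNT and 106 and 102 in siCnot1. The groups did not overlap and its log2 fold change was -0.26 (standard error 0.0618, edgeR adjusted p = 0.00236). Ubtf encodes UBF, which coats active rDNA. It had 464 and 436 CPM in siNT and 404 and 416 in siCnot1, a log2 fold change of -0.13 that did not pass (standard error 0.0552, edgeR adjusted p = 0.0725).

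The catalytic core of RNA polymerase I showed no change that passed. Polr1a, the largest subunit (GRCm38 chr6:71909053-71984935, plus strand), had 195 and 188 CPM in siNT and 186 and 182 in siCnot1. The siCnot1 values lay just under the lower siNT value, and the log2 fold change came to -0.06 (standard error 0.0572, edgeR adjusted p = 0.470, 95% interval from -0.18 to 0.06). Polr1b, the second-largest subunit, had 134 and 127 CPM in siNT and 128 and 143 in siCnot1, with a log2 fold change of 0.05 and an interval from -0.09 to 0.19. Rrn3, which makes the polymerase competent to start, stood at -0.09 with an interval from -0.21 to 0.02. Outside this class, 26 of the 35 genes fell, with a median of -0.25. The sign of Polr1a and Rrn3 turned with library totals (0.047 and 0.013). Whether the rDNA transcription class differed from the other classes was not tested.

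**Figure D3:**
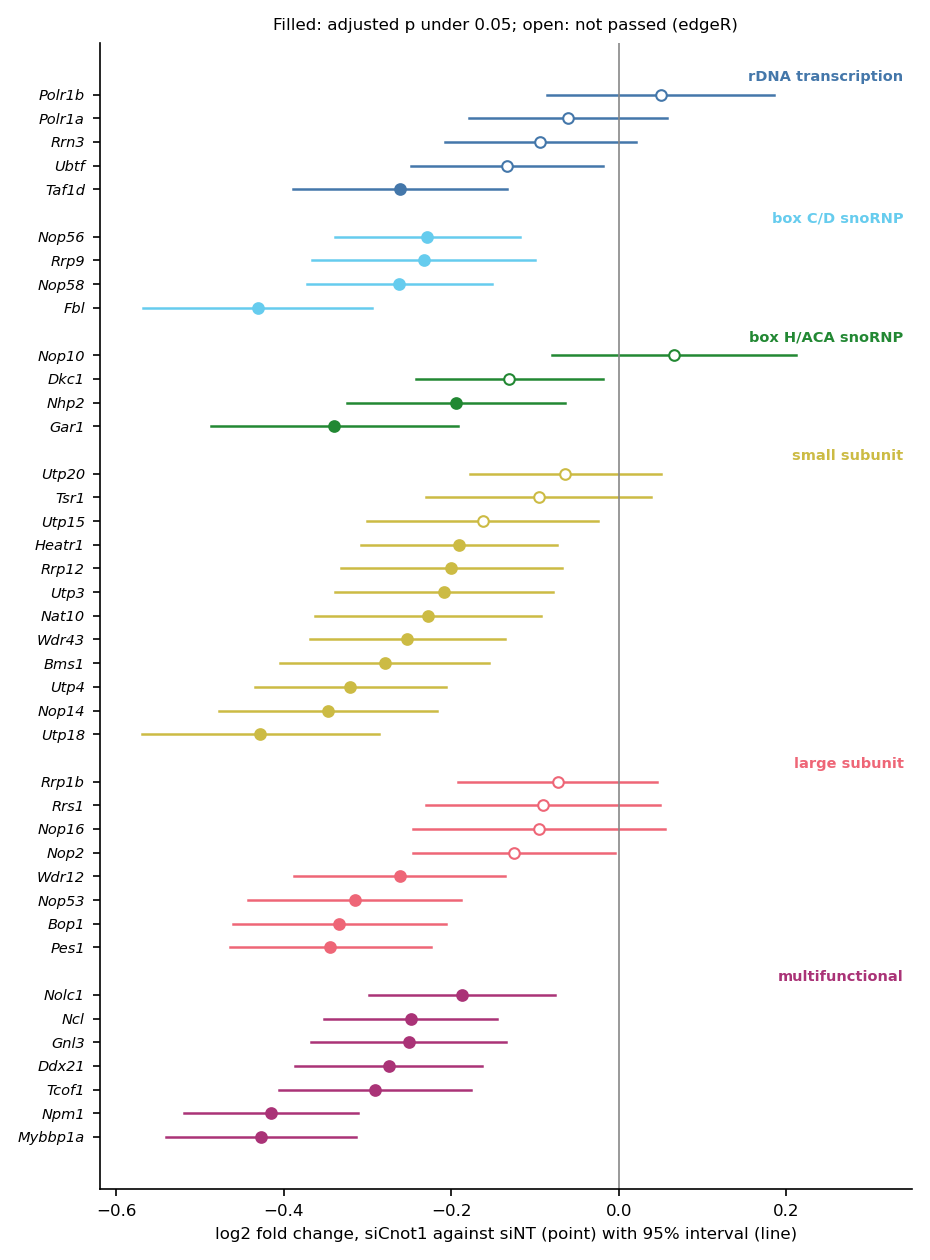
Log2 fold change of siCnot1 against siNT for each of the 40 genes (point) with its 95% interval (line) from the edgeR fit, coloured and grouped by role. Filled points passed an adjusted p of 0.05. All points of the multifunctional and box C/D classes are filled and lie between -0.43 and -0.19, whereas 1 of 5 is filled in the rDNA transcription class.

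The rest of the pathway was read from 139 further biogenesis factors, a list made by gene function. Of these, 56 fell (40.3%) and 2 rose, beside 14.7% of all tested genes lower and 15.0% higher. The median of the 139 was -0.15 on the log2 scale (-0.044 with library totals). Of the 95 at or above the level of the lowest of the 40 genes, 50 fell (52.6%) and 0 rose, with a median of -0.17. Among all tested genes in that level range 38.0% were lower. Among 16 further rDNA transcription factors 3 fell (18.8%), near the share over all tested genes. They were Taf1b of SL1 (-0.66), the polymerase subunit Polr1f (-0.49) and Polr1c (-0.21), a subunit shared with RNA polymerase III. Among 11 snoRNP assembly factors 4 fell (36.4%). They were led by the AAA+ ATPase Ruvbl1 (-0.44) and its partner Ruvbl2 (-0.23), with Nufip1 (-0.21) and Naf1 (-0.20). Among 49 small-subunit factors 20 fell and 1 rose, and Pno1, a pre-40S protein, had the largest fall of the pathway. Pno1 had 181 and 176 normalized CPM in siNT and 108 and 111 in siCnot1, giving a log2 fold change of -0.70 (standard error 0.0599, edgeR adjusted p = 9.08e-09). Nol7 (-0.49), Ddx10 (-0.40) and Lyar (-0.39), all nucleolar proteins, also fell. Among 63 large-subunit factors 29 fell and 1 rose, and the smallest adjusted p-values were those of Sdad1 (-0.48), the GTPase Gtpbp4 (-0.34), Nol8 (-0.38) and the export adapter Nmd3 (-0.35). The 2 that rose were Utp23 (0.32, edgeR adjusted p = 0.0240) and the helicase Dhx33 (0.25, edgeR adjusted p = 0.0129), and 0 were called higher in each of the 4 fits that left out a library. The count of 56 dropped to 20 without siNT replicate 1, 30 without siNT replicate 2 and 25 without siCnot1 replicate 1, and with library totals 31 were lower and 8 higher.

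**Figure D4:**
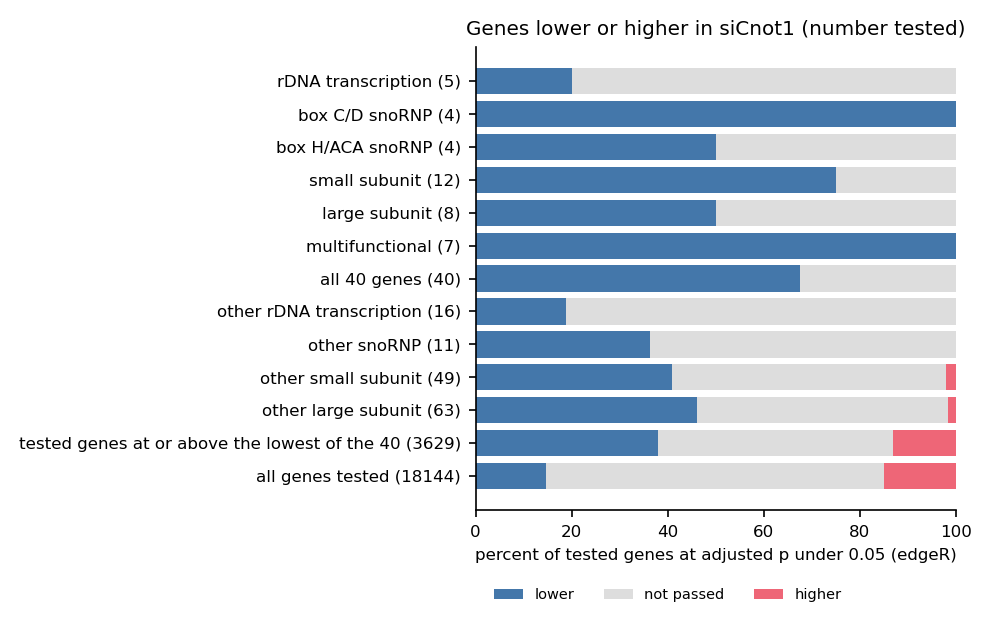
Percent of tested genes called lower (blue) or higher (red) in siCnot1 at an edgeR adjusted p under 0.05, for the roles among the 40 genes, for further factors of the pathway and for all tested genes, with the number tested in brackets. The rDNA transcription factors have small blue shares both among the 40 genes (1 of 5) and among the further factors (3 of 16), and the 40 genes together reach 67.5%, beside 38.0% of tested genes at or above the lowest of them and 14.7% of all.

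Nucleolar stress is known to free the ribosomal proteins RPL5 and RPL11, which bind MDM2 and so stabilize p53. On a list of 12 genes of this axis, 6 rose, 2 fell and 4 did not pass, beside 15.0% of all tested genes higher and 14.7% lower. With library totals 9 of the 12 were higher and 2 lower. The risers were p53 targets. Mdm2 had 182 and 194 normalized CPM in siNT and 290 and 259 in siCnot1, and the log2 fold change came to 0.55 (standard error 0.0625, edgeR adjusted p = 6.27e-07). Phlda3, an inhibitor of AKT, rose by 0.46, Eda2r by 0.33, Sesn2 by 0.31, the cell cycle inhibitor Cdkn1a by 0.27 and the apoptosis gene Bax by 0.23. Trp53 itself was at -0.13 and did not pass (edgeR adjusted p = 0.0785), nor did Ccng1 (0.11), Zmat3 (0.12) or Bbc3 (0.20). Rpl5 fell by 0.33 and Rpl11 by 0.42 at the RNA level. Protein levels and rRNA were not measured, and whether these changes go with those of the biogenesis genes across cells was not tested.

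MYC-family factors are the best-known activators of ribosome biogenesis genes, and they bind the E-box CACGTG with MAX. Mycn had 148 and 163 normalized CPM in siNT and 99.3 and 110 in siCnot1. The groups were far apart, giving a log2 fold change of -0.57 (standard error 0.0671, edgeR adjusted p = 9.08e-07). Myc was near 22 CPM, with 22.34 and 20.99 in siNT and 23.3 and 21.8 in siCnot1 and a log2 fold change of 0.06 (edgeR adjusted p = 0.730). The MAX-binding repressors Mxi1 (-0.46) and Mnt (-0.36) also fell, while Max (-0.10) and Mlx (-0.10) did not pass. Thus 3 of these 6 genes were lower, beside 14.7% of all tested genes. Whether the fall of Mycn has a part in that of the biogenesis genes was not tested.

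Promoter sequence was looked at for what these genes share. RefSeq windows on GRCm38.p6, from 250 bases before to 50 after a start, were given for 33 of the 40 genes. The letters CACGTG, which read the same on both strands, were in a window of 9 of the 33 (27.3%), beside 11.2% of 12821 tested genes and 8.09% of 27025 genes with a window. Stretches of 30 bases around the motif are printed 5′ to 3′ on the gene's strand, with the E-box in capitals, for the 5 of these 9 genes that fell and for 2 that did not pass (Nop2 and Rrn3).
Utp18, chr11:93885769-93885798, minus strand: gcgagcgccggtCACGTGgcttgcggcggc
Mybbp1a, chr11:72441347-72441376, plus strand: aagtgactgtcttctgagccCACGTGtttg
Pes1, chr11:3963965-3963994, plus strand: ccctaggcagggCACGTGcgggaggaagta
Utp4, chr8:106893643-106893672, plus strand: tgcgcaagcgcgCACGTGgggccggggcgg
Wdr43, chr17:71616220-71616249, plus strand: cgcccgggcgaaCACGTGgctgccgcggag
Nop2, chr6:125131811-125131840, plus strand: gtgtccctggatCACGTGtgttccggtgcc
Rrn3, chr16:13780639-13780668, plus strand: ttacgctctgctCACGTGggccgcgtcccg

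In Utp18 the E-box began 20 bases before the start, and in Pes1 it began at base 3 counting the start as 1. In Nop2 it began 60 bases before the start, and Rrn3 held the motif at 48 bases (printed) and again at 215 bases before the start. Of the 9 genes with the motif 5 fell, while Tsr1, Utp20, Nop2 and Rrn3 did not pass, and of the 24 with a window and no E-box 16 fell. Over all tested genes with a window, 20.1% of those with the E-box were called lower and 14.6% of those without, and the other motifs searched showed a like gap (18.8% and 14.5% for the ETS-type letters, 23.6% and 15.1% for CTCGCGAG, 22.4% and 14.8% for the NRF1-type letters). The ETS-type letters CCGGAAG, on either strand, were in 11 of the 33 (33.3%, beside 17.7% of tested genes), of which 8 fell, as did 13 of the 22 without them. The palindrome CTCGCGAG and the NRF1-type letters GCATGCGC, on either strand, were in 1 each, with 1.98% and 5.35% of tested genes holding them. These are matches of letters and not sites of binding, and no binding was measured here.

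Several of the 40 genes carry snoRNA genes within their span, so that their transcription also yields guide RNAs. In the table's own positions, 7 of the 40 (Nop56, Nop58, Wdr43, Tsr1, Nop53, Ncl and Gnl3) held 12 snoRNA genes. Of these 7 host genes 6 fell (median -0.25 on the log2 scale), and of the other 33 genes 21 fell (median -0.21). Poly(A)+ libraries do not capture mature snoRNAs, so their level was not read. Exon bases shared with another tested gene were found for 11 of the 40, of which 8 fell, and 19 of the 29 without such sharing fell. Apart from Tsr1 the shared part was at most 4.14% of exon bases. The 40 genes lie on 18 chromosomes.

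The size of the change depended on the scaling. With library totals 31 of the 40 genes were below 0 and the median was -0.12, with 16 lower and 0 higher. With DESeq2's size factors or upper-quartile scaling the medians were -0.24 and -0.21. Of the 27 genes called lower, all 27 were below 0 under each of 12 alternatives (4 of which left out a library), and 5 of them (Npm1, Mybbp1a, Ddx21, Nop58 and Utp4) passed under all 12. None of the 40 was called higher in the edgeR fit or in any of these 12, and the number higher at an unadjusted p under 0.05 in the edgeR fit was 0.

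**Figure D5:**
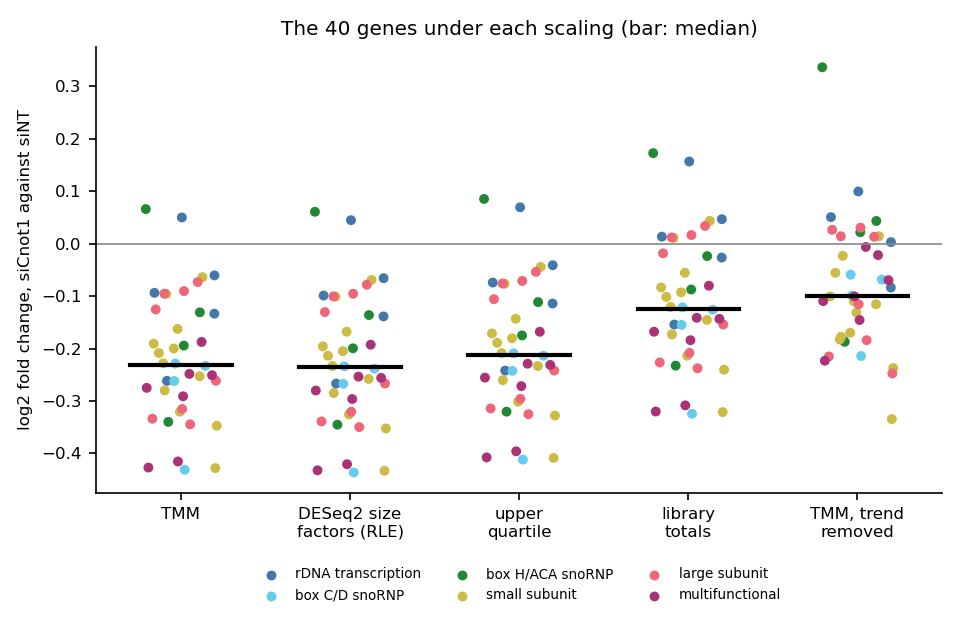
Log2 fold change of siCnot1 against siNT for the 40 genes (points, coloured by role) under 4 scalings and after a trend with exon length and level was removed from the TMM values. Black bars are medians, at -0.23 for TMM, -0.24 for DESeq2 size factors, -0.21 for upper quartile, -0.12 for library totals and -0.10 after the trend was removed.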

How the data were processed

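RNA-seq of 2 siNT and 2 siCnot1 libraries was used. The authors sequenced poly(A)+ libraries and deposited raw counts per gene, neither normalized nor pooled. The submitters' processing notes name fastp 0.19.4, HISAT2 2.2.1, DESeq2 1.40.2 and mm10, while the counting program is not given in the sources used here. Only 294 of 37794 genes compared by name start where GENCODE M21 (GRCm38) places them, so the table's positions are not GRCm38, and printed positions come from GENCODE M21 or RefSeq GRCm38.p6. All sample columns were used (0 left out).

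Genes passing filterByExpr (18144) were tested with edgeR 4.0.16 in R 4.3.3 (TMM, quasi-likelihood test, condition only, Benjamini-Hochberg adjustment); the biological coefficient of variation was 0.0721. A standard error is the absolute log2 fold change over the square root of F. The fits were also run on simulated counts without a trend of fold change with level. That run therefore cannot speak to such a trend or to the choice of scaling. The trend was a loess fit (span 0.5). At this depth 3 counts equal 0.0921 to 0.0934 CPM, which covers counting error only. P-values rest on the spread between 2 biological replicates per group, with the variance of each gene moderated by that of all tested genes.

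The 40 genes and all lists were chosen with earlier results of these data known. Named in full were, per role, the 2 genes with the smallest adjusted p, with Ncl, Npm1, Fbl and Polr1a; up to 4 genes with the smallest adjusted p were named per further list, and other genes by their place in the text. Alternatives were other scalings, filters, DESeq2 1.42.0, limma-voom 3.58.1, a replicate block and leaving out each library.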

Additional observations from a re-analysis of the deposited data

How the results depend on the processing

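The number of the 40 genes lower in siCnot1 was 27, stayed between 21 and 29 with DESeq2's size factors, upper-quartile scaling, other filters, DESeq2, limma-voom and the replicate block, and was 16 with library totals and 7 to 18 without 1 library each, with medians of -0.23 to -0.26. Their median log2 fold change was -0.12 with library totals and -0.10 after the trend was removed, against -0.23; that of the 139 further factors was -0.044 and -0.079, against -0.15. Of the further factors, 31 were lower with library totals, 33 without a filter on low counts and 20 to 39 without 1 library, and 8, 0 and 0 were higher, with 1 in DESeq2. Over all tested genes 1563 were lower with library totals, 1450 were lower and 1303 higher without the filter, and 871 to 1463 were lower and 743 to 1439 higher without 1 library. These last fits leave a group with 1 library, which is assumed to vary like the other group. With library totals 7 of the 40 genes turned sign, none of them called lower: Polr1a (0.047), Rrn3 (0.013), Utp20 (0.043), Tsr1 (0.011), Nop16 (0.012), Rrp1b (0.034) and Rrs1 (0.016). Over the fits without 1 library, Polr1b ranged from -0.041 to 0.13 and Nop10 from -0.029 to 0.15, and both were below 0 without siCnot1 replicate 2. The cause was not tested. Same-numbered replicates did not deviate together across genes (correlation 0.011). With 2 replicates per group this is a single comparison, which cannot show whether the samples were paired. The fit with the replicate block gave 27 lower, 0 higher and a median of -0.23.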
